A study of Mus musculus with 6 samples.

Results

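The genes described here encode the proteins of the mitochondrial ribosome, read in RNA from sorted mouse pancreatic tumor cells with and without a combination immunotherapy. They were chosen by symbol as every gene of the deposited table named Mrpl or Mrps, a number and at most 1 letter from a to d, with a mean of at least 1 TPM over the 6 libraries. TPM is transcript abundance corrected for length, with every library brought to one fixed total. In all, 78 of the 24493 genes in the table were members, 49 named for the large subunit (Mrpl) and 29 for the small subunit (Mrps). The threshold left out no row with such a symbol, since the lowest means were 7.61 TPM for Mrpl41 and 8.73 TPM for Mrpl17.

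The libraries were made from 6419c5 cells, a clonal mouse pancreatic tumor line that was grown under the skin of C57BL/6 hosts and then sorted. Of these, 4 were controls (Control 1 to 4). The other 2 came from tumors given GAFCP (GAFCP 1 and 2), which stands in the labels for gemcitabine, abraxane, a CD40 agonist, and CTLA-4 and PD-1 blockade. The comparison asks how expression in the tumor cells differed with treatment. Only 1 clone was used, and the sources used here give neither the sort gate nor the age of the animals. They do not state whether the libraries within a group are from separate animals, so the p-values cover only the spread among these 6 libraries, and that spread may be technical. The depth is unknown because TPM keeps none.

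Mitochondria carry their own ribosome, which in mammals makes the membrane-embedded core subunits of the respiratory chain and ATP synthase that mitochondrial DNA encodes. Its ribosomal RNAs are mitochondrial, but its proteins are encoded in the nucleus, made by cytosolic ribosomes and imported. Some of them belong to families shared with bacterial ribosomes, and others are found in the mitochondrial ribosome alone. The small subunit binds and decodes messenger RNA, and the large subunit joins the amino acids and holds the exit tunnel, which faces the inner membrane.

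The 2 groups of libraries differed in markers of other cells. Summed TPM of 20 macrophage and monocyte markers ranged from 1660 to 1777 in controls and from 6347 to 6424 with GAFCP, and 19 of the 20 rose. All 10 pan-leukocyte markers rose (sums of 167 to 183 and 480 to 494 TPM), as did 11 of 12 tested T and NK cell markers (9.47 to 12.05 and 47.7 to 53.1 TPM). Neutrophil markers summed to 36.5 to 41.9 and 110 to 120 TPM, with 5 of 7 tested higher and Ly6g, Camp and Ltf under 1 TPM in every library. Fibroblast markers summed to 205 to 225 and 343 to 344 TPM, with 7 higher and 1 lower of 10 tested. The B and plasma cell markers summed to 0.965 to 1.51 and 5.56 to 5.90 TPM, and the endothelial markers to 5.81 to 6.85 and 6.12 to 6.79 TPM. Markers of the labelled tumor epithelium were present at 7068 to 7464 TPM in controls and 5348 to 5382 TPM with GAFCP, and 6 of these 10 fell and 1 rose. No list had a marker at 0 in all libraries. Their part in the results below was not tested, and in bulk RNA fewer cells of a type and less RNA per cell cannot be told apart.

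Mitochondrial ribosomal protein genes changed little with GAFCP. Of the 78 genes, 20 fell and 4 rose (limma with Benjamini-Hochberg adjustment over the 13720 genes tested, adjusted p under 0.05), and 54 did not pass. That is 25.6% of members lower and 5.13% higher, beside 28.5% lower and 19.0% higher among all genes tested. Those with the largest decreases were Mrpl50, Mrps35, Mrps14, Mrpl44 and Mrps31, whose mean TPM changed by -22.1% to -29.6%. The 4 that rose were the large subunit genes Mrpl27, Mrpl18, Mrpl14 and Mrpl33, by 11.96% to 18.2% of the control mean. The log2 change (GAFCP minus control on the log2(TPM + 1) scale, used throughout) ran from -0.49 for Mrpl50 to 0.24 for Mrpl27. Of the 78 genes, 0 exceeded 0.5 in size, a bound that 21.6% of all genes tested and 16.3% of the 8982 genes in the members' range of mean TPM exceeded. The median log2 change was -0.03 for the members and -0.07 for all genes tested. In 72 of 78 members the GAFCP mean lay within 20% of the control mean. All 78 passed the filter on low values, and each was above 1 TPM in every library.

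**Figure D1:**
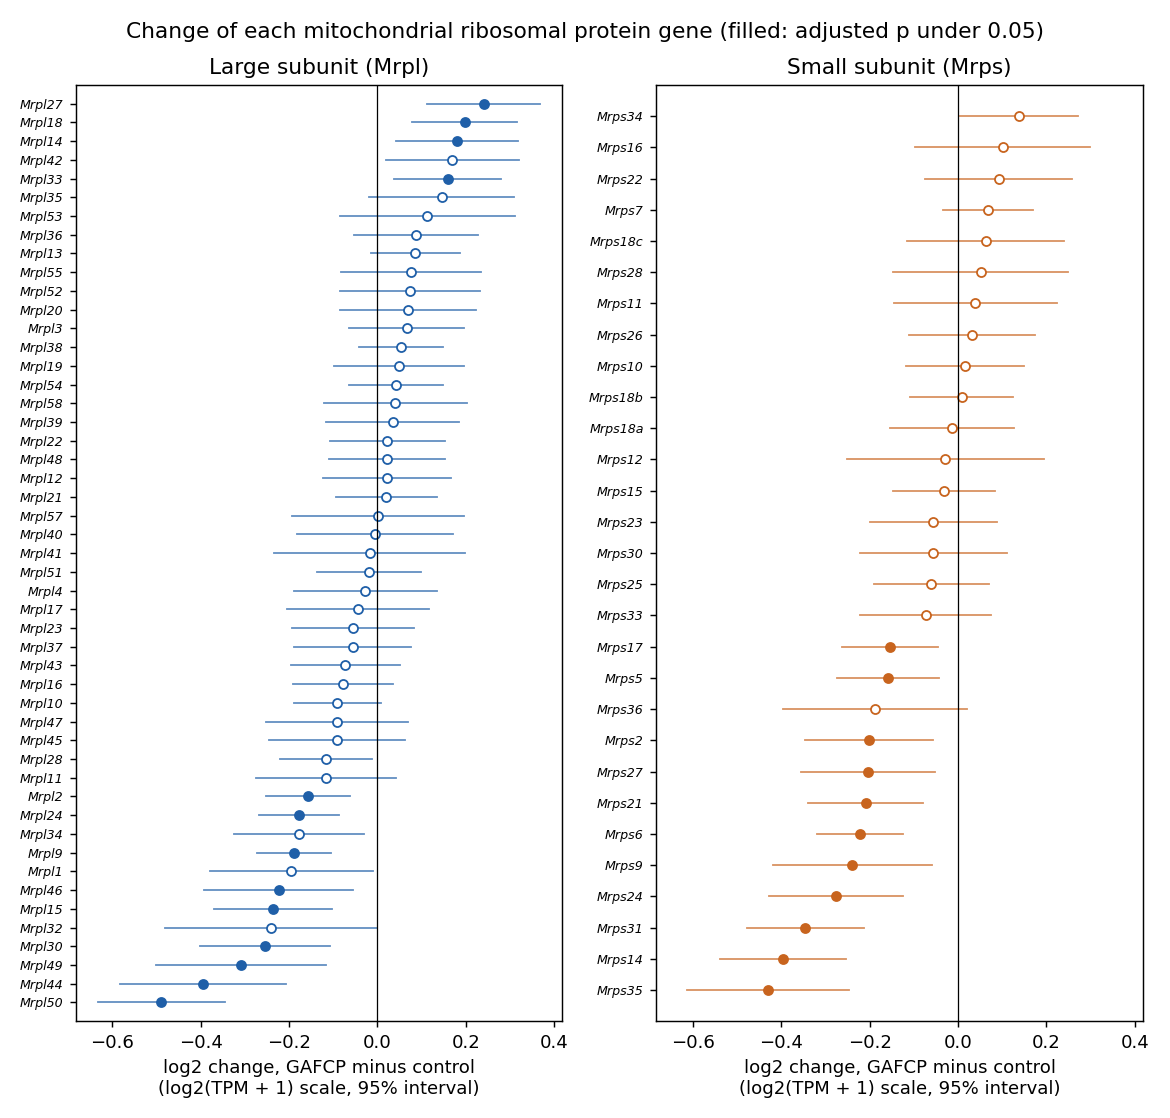
Log2 change of each gene (x axis, GAFCP minus control on the log2(TPM + 1) scale) with its 95% interval, large subunit genes in one panel and small subunit genes in the other, filled where the adjusted p was under 0.05. The large subunit has 9 filled points below 0 and 4 above it, and the small subunit has 11 below and 0 above.

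Counted by symbol, the large subunit held 9 lower genes, 4 higher genes and 36 that did not pass, with a median log2 change of -0.02. The small subunit held 11 lower genes, 0 higher genes and 18 that did not pass, with a median of -0.06. At an unadjusted p under 0.05, limma counted 18 of 49 large and 12 of 29 small subunit genes in either direction, beside 7431 of all 13720 genes tested. With median-of-ratios scaling, 2 small subunit genes rose and 7 fell. Both GAFCP libraries lay below all 4 controls in 26 members and above them in 8, and the groups overlapped in 44. Over all genes tested 61.6% had no overlap, 36.9% below and 24.7% above. The difference between the subunits was not tested.

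Sequences upstream of the RefSeq start are shown for 6 members, picked after their values and matches were known. They are examples of windows with and without motifs known from nuclear genes for mitochondria. The windows were taken from RefSeq (GRCm38.p6), from 250 bases before the start to 50 after it, and 69 of the 78 members had at least 1 (75 windows). They were searched on both strands for CCGGAAGT (an ETS-type core, the family of the nuclear respiratory factor GABPA), GCATGCGC (from the palindrome bound by the nuclear respiratory factor NRF1) and AAGATGGC (from the YY1 motif), which can overlap each other only at their ends. The ETS core was in 12 of the 75 windows (16.0%) and in 3.89% of all 32851 windows. The NRF1 motif was in 8 (10.7% beside 2.71%) and the YY1 motif in 12 (16.0% beside 2.75%). At least 1 of the 3 motifs was in 38.7% of the members' windows and 8.83% of all windows. The set of all windows was not limited to genes tested here, and shares for those genes alone were not counted. The motif lengths were set after matches had been counted with longer forms. Of the genes with a window, the ETS core was found in 3 of the 4 that rose (Mrpl18, Mrpl27 and Mrpl33), 1 of the 18 that fell (Mrps27) and 8 of the 47 that did not pass. The NRF1 motif was found in 1 of the 4, 1 of the 18 and 6 of the 47, and the YY1 motif in 0 of the 4, 3 of the 18 and 9 of the 47. Mrpl27 and Mrpl18 are shown as genes that rose, Mrps27 as the gene with an ETS core that fell (its window also holds the YY1 motif, outside the bases printed), and Mrpl9 as a gene with an NRF1 motif that fell. Mrpl50 and Mrps14 are shown as large decreases whose windows held 0 of the 3 motifs. Each is printed 5′ to 3′ on the gene's strand, ending at the base before the start, with a matched motif in capitals.
Mrpl27 (chr11:94653541-94653790, plus strand): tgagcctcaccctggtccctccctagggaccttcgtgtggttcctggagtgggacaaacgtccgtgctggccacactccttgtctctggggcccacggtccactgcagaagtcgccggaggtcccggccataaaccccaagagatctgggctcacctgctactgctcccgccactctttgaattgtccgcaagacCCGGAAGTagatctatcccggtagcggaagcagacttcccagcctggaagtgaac
Mrpl18 (chr17:12916092-12916341, minus strand): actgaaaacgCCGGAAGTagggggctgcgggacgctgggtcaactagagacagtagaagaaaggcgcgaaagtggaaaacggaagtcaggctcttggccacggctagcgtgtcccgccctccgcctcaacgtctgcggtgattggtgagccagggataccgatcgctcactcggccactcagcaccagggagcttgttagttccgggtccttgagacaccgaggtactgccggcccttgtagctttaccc
Mrps27 (chr13:99344536-99344785, plus strand): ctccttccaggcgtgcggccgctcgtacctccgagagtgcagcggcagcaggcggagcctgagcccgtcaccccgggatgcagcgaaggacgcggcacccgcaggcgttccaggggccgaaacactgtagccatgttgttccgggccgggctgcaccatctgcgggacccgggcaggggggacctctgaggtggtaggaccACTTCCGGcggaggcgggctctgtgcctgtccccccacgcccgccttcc
Mrpl9 (chr3:94443086-94443335, plus strand): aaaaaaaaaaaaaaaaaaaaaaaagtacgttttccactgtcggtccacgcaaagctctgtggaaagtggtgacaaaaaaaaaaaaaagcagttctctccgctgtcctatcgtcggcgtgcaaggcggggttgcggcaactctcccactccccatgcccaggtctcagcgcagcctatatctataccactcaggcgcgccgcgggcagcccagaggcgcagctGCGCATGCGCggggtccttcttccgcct
Mrpl50 (chr4:49521084-49521333, minus strand): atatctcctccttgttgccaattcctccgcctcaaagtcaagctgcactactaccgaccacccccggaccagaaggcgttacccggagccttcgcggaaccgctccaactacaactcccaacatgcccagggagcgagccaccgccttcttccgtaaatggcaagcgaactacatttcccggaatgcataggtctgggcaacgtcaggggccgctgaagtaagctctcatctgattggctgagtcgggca
Mrps14 (chr1:160194965-160195214, plus strand): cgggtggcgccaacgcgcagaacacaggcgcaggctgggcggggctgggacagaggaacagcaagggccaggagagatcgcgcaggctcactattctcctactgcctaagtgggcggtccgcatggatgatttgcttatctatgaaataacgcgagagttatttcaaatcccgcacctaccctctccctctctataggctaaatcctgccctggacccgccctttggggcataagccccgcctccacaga
The ETS core began 55 bases before the RefSeq start in Mrpl27, 240 in Mrpl18 and 49 in Mrps27, where it reads as its reverse complement. The NRF1 motif of Mrpl9, which matches on both strands, began 28 bases before that gene's RefSeq start. For Mrpl18 all bases printed, with the ETS core, lie inside the gene span of GENCODE M21 (12911349 to 12916345), so they are not upstream by that annotation. The GENCODE spans of Mrpl27, Mrpl9 and Mrpl50 also reach into the bases printed. A match describes letters only. The common promoter words CCAAT and TATAAA were in 40.0% and 6.67% of the members' windows and in 37.4% and 13.6% of all windows.

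Levels spanned 58.4-fold between the highest and lowest member, on the length-corrected TPM scale. In the large subunit Mrpl52, a protein found only in mitochondrial ribosomes, had the highest mean over the 6 libraries at 444.0 TPM, followed by Mrpl33 at 312 TPM and Mrpl34 at 175 TPM. The lowest were Mrpl41 at 7.61, Mrpl17 at 8.73 and Mrpl19 at 10.9 TPM. In the small subunit Mrps21 led at 305 TPM, followed by Mrps18c at 132 TPM and Mrps16 at 117 TPM, and the lowest were Mrps25 at 14.3, Mrps2 at 16.8 and Mrps27 at 24.4 TPM. Most of these proteins are present as a single copy per ribosome, while 17 members were above 100 TPM, 3 of them above 200 TPM, and 2 were under 10 TPM. The 3 most abundant made up 18.5% of the members' mean sum. Library spread was small. The median coefficient of variation over the 4 controls was 5.46% for the members, 5.61% for genes in the same TPM range and 6.89% for all genes tested. It ran from 0.727% for Mrpl9 to 11.3% for Mrps12.

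**Figure D2:**
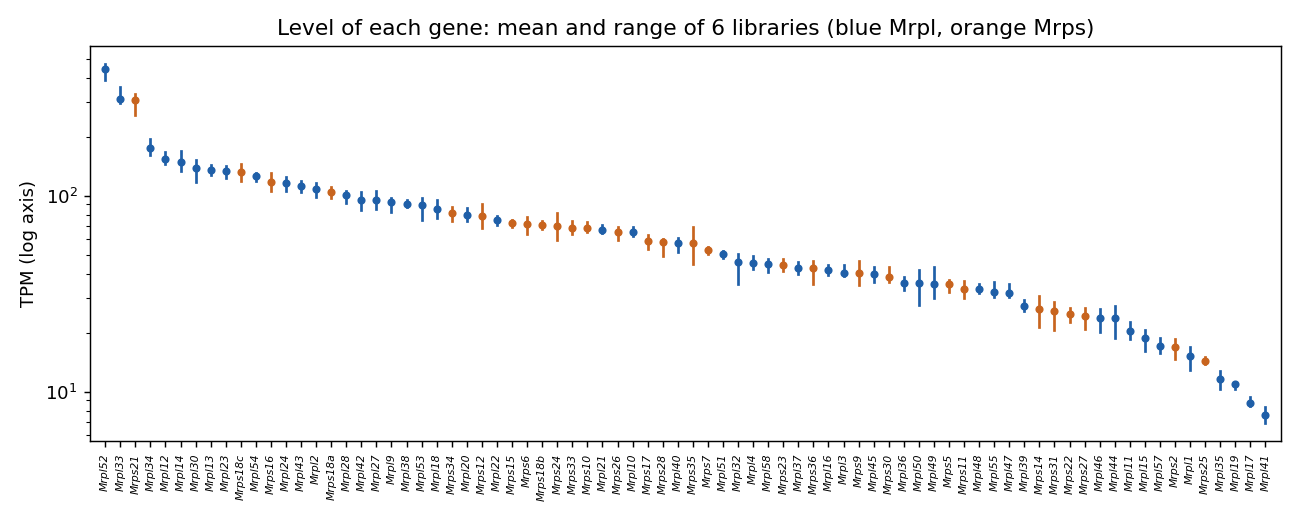
TPM of each gene on a log axis, as the mean (point) and range (line) of 6 libraries, ordered by level, with large subunit genes in blue and small subunit genes in orange. Mrpl52 lies highest at 444.0 TPM and Mrpl41 lowest at 7.61 TPM, and both subunits are spread over the order.

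The largest decrease was in Mrpl50, a large subunit protein with no bacterial counterpart (chromosome 4, 49512596 to 49521093, minus strand, gene spans here and below from GENCODE M21 on GRCm38, also called mm10). Mrpl50 was at 38.9, 41.1, 36.6 and 41.7 TPM in Control 1 to 4 and at 27.5 and 28.3 TPM in GAFCP 1 and 2. Both GAFCP libraries lay well below every control. The control mean was 39.6 ± 2.32 TPM (SD, n = 4) and the GAFCP mean 27.9 ± 0.575 TPM (SD, n = 2). On the log2 scale this was -0.49 ± 0.06 (SE; limma adjusted p = 0.000439). Mrpl44, which carries a fold related to ribonuclease III and sits at the surface of the large subunit (chromosome 1, 79776018 to 79781445, plus strand), was at 26.3, 26.6, 22.6 and 27.4 TPM in the controls and at 19.7 and 18.8 TPM under GAFCP. Control 3 was the lowest control and still lay above both GAFCP libraries. The log2 change was -0.39 ± 0.08 (SE; limma adjusted p = 0.00499). Mrpl49, another protein specific to the mitochondrial ribosome (chromosome 19, 6053622 to 6057785, minus strand), was at 37.8, 43.3, 36.1 and 35.0 TPM and at 30.1 and 30.7 TPM, with Control 2 apart from the other controls. It fell by 0.31 on the log2 scale (limma adjusted p = 0.0173), and did not pass without GAFCP 1 (adjusted p = 0.0961).

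The remaining large subunit genes that fell changed by less. Mrpl30, from a family shared with bacteria, was at 131.5, 148.6, 152.5 and 149.0 TPM in the controls and at 125.5 and 117.8 TPM under GAFCP, a log2 change of -0.25. Mrpl15, also of a bacterial family, was at 19.8, 19.7, 18.8 and 20.5 TPM and at 16.2 and 17.0 TPM, a log2 change of -0.24. Neither gene's groups overlapped. Mrpl46, specific to the mitochondrial ribosome, was at 23.1, 25.9, 26.4 and 24.4 TPM and at 20.1 and 22.4 TPM (log2 change -0.22), and GAFCP 2 lay just under Control 1. Mrpl9 was the steadiest member in controls, at 95.4, 97.1, 95.8 and 96.2 TPM, and was at 86.0 and 82.5 TPM with GAFCP (log2 change -0.19). Mrpl24, a protein placed near the exit tunnel, was at 124.9, 122.5, 117.9 and 118.9 TPM and at 108.4 and 105.5 TPM (log2 change -0.18). Mrpl2, which lies by the peptidyl transferase centre, fell by 0.16. Their limma adjusted p-values ran from 0.0038 for Mrpl9 to 0.0361 for Mrpl46. Mrpl46 was the least stable of them and passed in 8 of the 18 alternative settings.

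In the small subunit Mrps35, specific to mitochondria (chromosome 6, 147042764 to 147073991, plus strand), was at 59.7, 69.3, 56.9 and 64.9 TPM in Control 1 to 4 and at 47.5 and 44.9 TPM in GAFCP 1 and 2. The controls were spread over a wider range than the GAFCP libraries, and the groups did not overlap. Its log2 change was -0.43 ± 0.08 (SE; limma adjusted p = 0.00298). Mrps14, of a family shared with bacteria (chromosome 1, 160195215 to 160202170, plus strand), was at 27.9, 30.8, 28.7 and 27.0 TPM and at 21.5 and 21.4 TPM. The GAFCP libraries were nearly equal and lay below all controls. Its log2 change was -0.40 ± 0.06 (SE; limma adjusted p = 0.00129). Mrps31, a mitochondrion-specific protein first known as an autoantigen (chromosome 8, 22411361 to 22429665, plus strand), was at 28.0, 28.6, 26.4 and 27.7 TPM and at 22.4 and 20.7 TPM. It fell by 0.35 on the log2 scale (SE 0.06; limma adjusted p = 0.0017), again without overlap.

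A further 8 small subunit genes fell by less. Mrps6, of a bacterial family (chromosome 16, 92058270 to 92112227, plus strand), was at 74.9, 76.5, 77.3 and 72.5 TPM in the controls and at 65.0 and 63.7 TPM under GAFCP, or -0.22 ± 0.04 on the log2 scale (SE; limma adjusted p = 0.00333). Mrps24, of a bacterial family of the messenger RNA entry site, was at 69.3, 75.1, 73.1 and 81.0 TPM and at 63.5 and 59.2 TPM (log2 change -0.28). Both sets of GAFCP values lay below the lowest control. Mrps9, which reaches towards the decoding site, was at 41.9, 46.5, 37.9 and 43.8 TPM and at 36.5 and 35.1 TPM (log2 change -0.24), where Control 3 was close to GAFCP 1. Mrps21, the most abundant small subunit gene, was at 321, 317, 313 and 328 TPM in the controls and at 257 and 297 TPM under GAFCP (log2 change -0.21). Its decrease came mostly from GAFCP 1, and without that library it was -0.10 and did not pass (adjusted p = 0.149). Mrps27, a pentatricopeptide repeat protein, was at 26.6, 26.2, 24.99 and 24.4 TPM and at 20.8 and 23.4 TPM (log2 change -0.20). Here too GAFCP 1 was the lower library, and without it the change was -0.12 and did not pass (adjusted p = 0.287). Mrps2, Mrps5 and Mrps17, all of bacterial families, fell by 0.20, 0.16 and 0.15.

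In the main fit the 4 genes that rose all belong to the large subunit and to families shared with bacteria. This did not hold in every setting. With median-of-ratios scaling Mrpl35, Mrpl42, Mrps7 and Mrps34 also passed as higher. Of these Mrps7 and Mrps34 are small subunit genes, and Mrpl42 and Mrps34 are specific to the mitochondrial ribosome. Among the 4, Mrpl27, which reaches towards the peptidyl transferase centre (chromosome 11, 94653767 to 94660089, plus strand), was at 85.3, 89.5, 96.3 and 85.5 TPM in Control 1 to 4 and at 106 and 105 TPM in GAFCP 1 and 2. Control 3 was the highest control and still lay below both GAFCP libraries. Its log2 change was 0.24 ± 0.06 (SE; limma adjusted p = 0.00863), and 0.23 without GAFCP 1, where it did not pass (adjusted p = 0.0636). Mrpl18, of the central protuberance (chromosome 17, 12911349 to 12916345, minus strand), was at 76.8, 86.2, 81.6 and 80.2 TPM and at 94.7 and 91.6 TPM, or 0.20 ± 0.05 on the log2 scale (SE; limma adjusted p = 0.0148). It did not pass without GAFCP 1 (adjusted p = 0.114) or without GAFCP 2 (adjusted p = 0.0564). Mrpl14, which lies at the interface between the subunits (chromosome 17, 45686322 to 45698495), was at 132.7, 150.5, 142.5 and 142.5 TPM and at 169.2 and 153.0 TPM, so GAFCP 2 was close to Control 2 (log2 change 0.18, limma adjusted p = 0.0392). Without GAFCP 1 its change was 0.11 and did not pass (adjusted p = 0.306). Mrpl33, a small protein of the tRNA exit region (chromosome 5, 31596935 to 31664384), was at 302, 298, 304 and 296 TPM and at 359 and 313 TPM (log2 change 0.16, limma adjusted p = 0.0373). Its increase came mostly from GAFCP 1, and without that library it was 0.06 (adjusted p = 0.354). Mrpl14 and Mrpl33 passed in 9 and 6 of the 18 alternative settings.

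**Figure D3:**
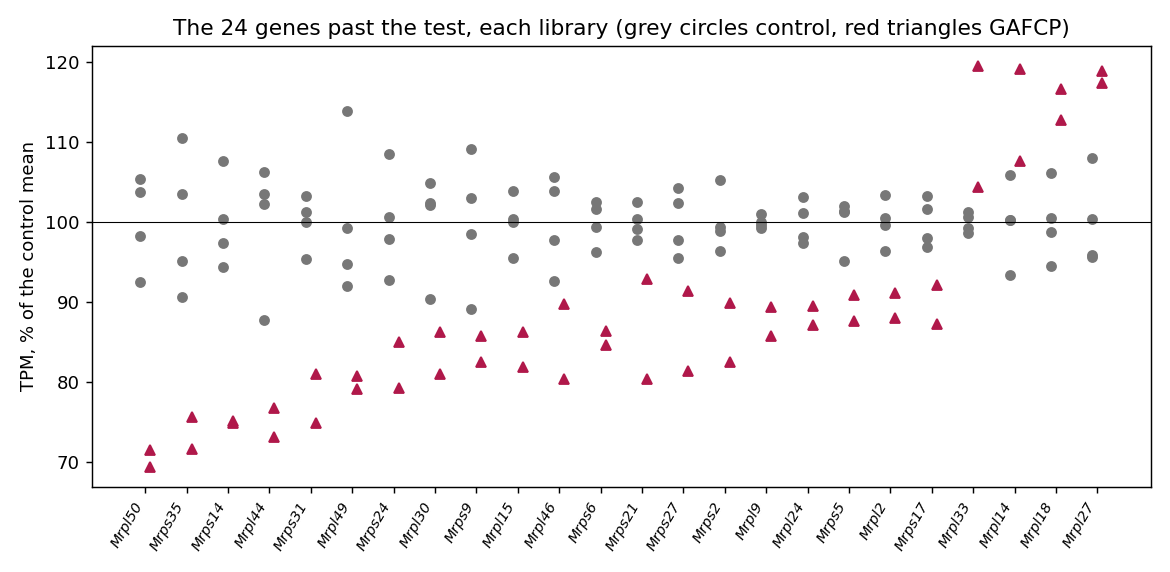
TPM in each library as a percent of the control mean (y axis) for the 24 genes past the test, with controls as grey circles and GAFCP libraries as red triangles. In each gene both triangles lie outside the circles. They lie apart from each other in several genes, among them Mrpl33, Mrps21, Mrpl14, Mrps27 and Mrpl46.

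Which members passed depended on the setting for 18 of the 24. Mrpl44, Mrpl50, Mrps6, Mrps14, Mrps31 and Mrps35 passed in each of the 18 alternatives, and these 6 are all decreases. Of the other 18 genes, 4 were lost only where a GAFCP library was left out. Of the 24 genes, 0 changed direction in any alternative. Without GAFCP 1 there were 11 lower and 0 higher members, and without GAFCP 2 there were 12 lower and 3 higher. Over all genes tested the shares also became smaller, at 18.7% lower and 12.95% higher without GAFCP 1 and 19.3% lower and 12.7% higher without GAFCP 2. The lone GAFCP library was then assumed to vary like the controls. Without GAFCP 1 the 14 genes that did not pass were Mrpl2, Mrpl14, Mrpl15, Mrpl18, Mrpl27, Mrpl33, Mrpl46, Mrpl49, Mrps2, Mrps5, Mrps9, Mrps17, Mrps21 and Mrps27 (limma adjusted p of 0.0543 to 0.354). Without GAFCP 2 the 11 that did not were Mrpl2, Mrpl9, Mrpl18, Mrpl24, Mrpl30, Mrpl49, Mrps2, Mrps5, Mrps9, Mrps17 and Mrps24 (0.0544 to 0.219). Leaving out a control lost 7 calls for Control 1 (0.0503 to 0.0787), 7 for Control 2 (0.0517 to 0.072), 3 for Control 3 (0.0568 to 0.0658) and 6 for Control 4 (0.0512 to 0.0851). These were drawn from Mrpl14, Mrpl33, Mrpl46, Mrps2, Mrps5, Mrps9, Mrps17 and Mrps27.

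Some members share position or sequence with another gene, and how reads were divided between them was not tested. Of the 78 members, 28 had an exon overlapped by a gene on the other strand, 8 by a gene on the same strand, and 14 a transcript nearly identical to that of another gene (at least 95% identity over at least 50% of the transcript). Together these made 40 members, of which 4 rose and 10 fell, while of the 38 with neither 0 rose and 10 fell. The 4 genes that rose were among the 40. Mrpl27 overlaps the DNA repair gene Eme1 on the other strand and has a near copy, Gm6304. Eme1 had means of 6.08 TPM (controls) and 7.42 TPM (GAFCP) and did not pass. Mrpl18 overlaps the chaperonin gene Tcp1 (224 and 228 TPM, not passed), Mrpl14 overlaps Tmem63b (97.3 and 92.2 TPM, not passed) and Mrpl33 overlaps Gm43809 on its own strand. Among genes that fell, Mrps24 shares its strand with Urgcp, which also fell (19.1 and 15.9 TPM), and Mrpl24 overlaps Rrnad1, which also fell (16.8 and 14.1 TPM). Mrpl44 overlaps Wdfy1 (12.4 and 14.0 TPM, not passed), Mrpl49 overlaps Syvn1 (44.3 and 48.5 TPM, not passed), and Mrps6 shares its strand with Slc5a3. Mrpl30 and Mrps21 have near copies. Mrpl46 and Mrps11 overlap each other, and Mrps11 had means of 33.1 TPM (controls) and 34.0 TPM (GAFCP), a log2 change of 0.04 that did not pass. The sources used here do not give the strandedness of the libraries, so the values of these 40 members are uncertain. Mrpl50, Mrps14, Mrps31 and Mrps35 have neither an overlap nor a near copy.

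For the 54 members that did not pass, the 95% intervals bound the difference. The lowest bound was -0.48 (Mrpl32) and the highest 0.32 (Mrpl42), and in 41 of the 54 the interval lay within 0.25 of 0 on either side. Mrpl32 was at 44.4, 50.2, 47.2 and 50.4 TPM in the controls and at 35.4 and 46.3 TPM under GAFCP, so its GAFCP libraries lay further from each other than the group means did. Of these 54 genes, 10 had groups that did not overlap, among them Mrpl34 (log2 change -0.18, limma adjusted p = 0.0511) and Mrpl42 (0.17, limma adjusted p = 0.0629). With median-of-ratios scaling Mrpl35, Mrpl42, Mrps34 and Mrps7 passed as higher. The values nearest to 0 were those of Mrpl57 (0.00), Mrpl40 (-0.01) and Mrpl41 (-0.02) in the large subunit and Mrps18b (0.01), Mrps18a (-0.01) and Mrps10 (0.02) in the small.

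Members with known special roles were among those that did not pass. Mrpl12, the stalk protein that recruits translation factors and has also been tied to the mitochondrial RNA polymerase, was at 144, 167, 153 and 145 TPM in the controls and at 158 and 152 TPM under GAFCP. Its partner at the stalk base, Mrpl11, was at 20.2, 22.6, 21.2 and 20.04 TPM and at 18.6 and 20.05 TPM, and neither separated the groups. Mrpl58, a peptidyl-tRNA hydrolase built into the large subunit that rescues stalled ribosomes, was at 40.8, 47.2, 46.2 and 42.6 TPM and at 47.2 and 43.7 TPM. Mrps12, the decoding-site protein, varied most among controls, at 68.3, 79.6, 79.6 and 90.4 TPM, and its GAFCP values of 75.5 and 79.5 TPM lay inside that range. The paralogs Mrps18a, Mrps18b and Mrps18c, of which the first belongs to the large subunit as a protein, had control means of 105, 71.0 and 130 TPM and GAFCP means of 104, 71.4 and 136 TPM. All 3 overlapped between the groups. Mrps30, whose protein is also a part of the large subunit, had a log2 change of -0.06. Mrps36, whose protein is now known as a subunit of the 2-oxoglutarate dehydrogenase complex rather than of the ribosome, was at 39.8, 46.4, 45.7 and 45.4 TPM and at 35.2 and 42.6 TPM (log2 change -0.19, limma adjusted p = 0.122).

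The members' share of all transcripts was nearly level. They summed to 5535, 5880, 5813 and 5836 TPM in Control 1 to 4 and to 5691 and 5623 TPM in GAFCP 1 and 2, which is 0.553% to 0.588% of all TPM in controls and 0.562% to 0.569% with GAFCP. The large subunit genes summed to 3676 to 3907 TPM in controls and to 3874 and 3783 TPM with GAFCP, inside the control range. The small subunit genes summed to 1859 to 1982 TPM in controls and to 1817 and 1840 TPM with GAFCP. Both lay below the lowest control on the TPM scale, and the mean changed by -5.45%. With median-of-ratios scaling the small subunit median log2 change was 0.0068 in place of -0.06, and sums under that scaling are not given here. The ratio of the large to the small sum was 1.98, 1.98, 2.02 and 1.95 in controls and 2.13 and 2.06 with GAFCP. Both GAFCP libraries were higher, with means of 1.98 ± 0.0319 (SD, n = 4) and 2.09 ± 0.0535 (SD, n = 2), a change of 5.67%. Without the most abundant gene of each subunit, Mrpl52 and Mrps21, the change was 3.24%. Without the 40 members with an overlapping gene or near copy it was 3.33% and the groups overlapped (1.86 to 1.99 and 1.93 to 1.998). With Mrps30 and Mrps18a moved to the large subunit and Mrps36 left out it was 5.76%. These alternatives to the ratio were chosen after seeing the data.

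**Figure D4:**
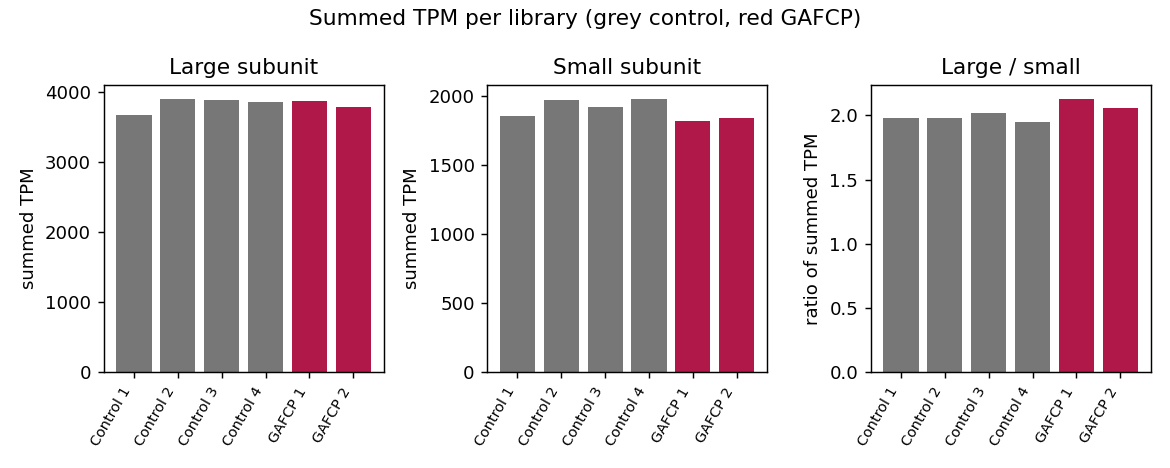
Summed TPM of the large and small subunit genes and the ratio of the sums in each library (bars from 0, grey for controls, red for GAFCP). The small subunit sum is lower in both GAFCP libraries (1817 and 1840 TPM) than in every control, and the large subunit sums overlap. Sums under other scalings are not given here.

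The members were also divided by protein family, a grouping made after the values were seen and given without a test. Of 48 genes whose protein family is also found in bacteria, 13 fell and 4 rose, with a median log2 change of -0.03. Of 29 specific to the mitochondrial ribosome, 7 fell and 0 rose, with a median of -0.02. The shares that fell were 27.1% and 24.1%, near the 28.5% of all genes tested. Summed TPM of the first class was 3754 to 3952 in controls and 3753 to 3826 with GAFCP, and of the second 1741 to 1882 and 1828 to 1830. The largest single decreases were found in both classes, with Mrpl50 and Mrps35 among the specific proteins and Mrps14 in a bacterial family.

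Of the mitochondrial ribosomal proteins that carry other symbols, 5 were tested, and 1 of them fell. Dap3, a GTP-binding small subunit protein, was at 28.5, 29.5, 29.1 and 30.0 TPM in the controls and at 25.2 and 24.3 TPM under GAFCP, a log2 change of -0.23 (limma adjusted p = 0.00542). Ptcd3, Aurkaip1 and Chchd1 of the small subunit and Gadd45gip1 of the large did not pass, with log2 changes of -0.06, -0.13, 0.13 and -0.10. The list of 7 tested genes also held Oxa1l, the membrane insertase to which the ribosome docks, which fell by 0.29. Dap3 did not pass without GAFCP 2, at -0.21. The list held a clone-named gene, 2310061I04Rik, whose place in the ribosome was not established here and which was at 40.1 TPM in both groups. In this list 2 of 7 fell (28.6%) and 0 rose, beside 28.5% and 19.0% of all genes tested.

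Genes that build and serve the mitochondrial ribosome were read from lists. Of 27 assembly factors tested 7 fell (25.9%) and 1 rose (3.70%), beside 28.5% and 19.0% of all genes tested, with a median log2 change of -0.09. Fastkd2, an RNA-binding protein needed for large subunit assembly, fell by 0.46, from 10.4 to 12.1 TPM in controls to 7.92 and 7.78 TPM. Mterf4, which brings an RNA methyltransferase to the large subunit, fell by 0.52, the pseudouridine synthase family member Rpusd4 by 0.30 and the small subunit factor Mettl17 by 0.23 (-0.19 and not passed without GAFCP 1). The gene that rose was Tfb1m, which methylates the small subunit RNA (7.10 to 7.40 TPM in controls, 8.62 and 9.13 TPM with GAFCP). Of 15 translation factors 1 fell and 1 rose. The initiation factor Mtif2 fell by 0.35 (22.3 to 24.9 TPM, then 17.4 and 19.1 TPM), and Slirp, which stabilizes mitochondrial messenger RNA with Lrpprc, rose by 0.23. Slirp did not pass without GAFCP 1 (0.25), without GAFCP 2 (0.21), without Control 3 (0.21) or in 5 other settings. The elongation factor Tufm was at 89.8 ± 3.07 TPM (SD, n = 4) and 83.4 ± 3.85 TPM (SD, n = 2), a change of -0.11 that did not pass.

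Of 20 mitochondrial aminoacyl-tRNA synthetases and amidotransferase subunits, which charge the tRNAs, 7 fell (35%) and 2 rose, with a median of -0.17. Vars2, for valine, went from 24.4 to 26.2 TPM in controls to 17.0 and 17.9 TPM and fell by 0.52. Iars2, for isoleucine, fell by 0.46, and the amidotransferase subunits Gatb and Gatc by 0.51 and 0.25 (-0.45 and -0.20, neither passed, without GAFCP 1). Lars2, for leucine, was listed at 773 to 1166 TPM in the controls and at 1001 and 1004 TPM under GAFCP and made up 77.8% of the list's sum. Of 11 genes of mitochondrial DNA transcription and maintenance 4 fell (36.4%) and 0 rose, with a median of -0.32. Tfb2m, the transcription initiation factor, went from 20.6 to 24.04 TPM to 14.0 and 14.1 TPM and fell by 0.59. The helicase gene Twnk, whose exons overlap those of Mrpl43, fell by 0.37, the polymerase accessory subunit Polg2 by 0.45 and the single-strand binding protein Ssbp1 by 0.32. Tfam and Polrmt did not pass (0.10 and -0.02). Over all genes tested 28.5% fell, and the median was -0.07.

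Of 23 genes of mitochondrial protein import, by which the ribosomal proteins reach their place, 5 fell (21.7%) and 2 rose (8.70%). Their median log2 change was -0.06. Beside them, 28.5% of all genes tested fell and 19.0% rose, with a median of -0.07. The inner membrane translocase genes Timm17b and Dnajc19 fell by 0.34 and 0.33, while the outer membrane channel Tomm40 rose by 0.19 and the chaperone Timm13 by 0.25. Of these Dnajc19, Tomm40 and Timm13 did not pass without GAFCP 1 (-0.29, 0.14 and 0.22). Of 8 regulators of nuclear genes for mitochondria 1 fell (12.5%) and 0 rose. Myc was at 73.6, 77.6, 71.2 and 75.6 TPM in the controls and at 65.3 and 66.5 TPM under GAFCP (log2 change -0.17, limma adjusted p = 0.0156), and did not pass without GAFCP 1 (-0.16) or without GAFCP 2 (-0.19). Nrf1, Gabpa, Yy1 and Esrra, which code for factors that bind such promoters, had log2 changes of -0.04, -0.19, -0.01 and 0.04 and did not pass. Ppargc1a and Ppargc1b, coactivators of mitochondrial genes, did not reach 1 TPM in any library, so they had no test.

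Related families in the same fit had more decreases than the members, whose share that fell (25.6%) was near the 28.5% of all genes tested. Of 79 cytosolic ribosomal protein genes 51 fell and 4 rose (median -0.15), and of 75 nuclear subunits of oxidative phosphorylation 45 fell and 2 rose (median -0.16). These families share the same libraries, and the differences between them were not tested. The ratio of summed cytosolic to summed mitochondrial ribosomal protein TPM was 32.1 to 33.1 in controls and 29.2 and 29.8 with GAFCP, so the GAFCP libraries lay below every control. With median-of-ratios scaling 13 members fell and 8 rose, and over all genes tested 3425 fell and 3449 rose in place of 3909 and 2606.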

How the data were processed

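Bulk RNA was sequenced from 6 libraries (4 Control, 2 GAFCP). The deposited values are TPM for 24493 genes, for which the submitters' processing notes name Salmon and the build mm10. The sources used here give no Salmon version or annotation. Since the authors' TPM values fix each library's total, a few abundant genes can lower all others. TPM keeps no depth, so there are no counting intervals. Groups and replicate numbers came from the sample titles.

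The members and all gene lists were chosen with earlier results of these data known. The 13720 genes that reached 1 TPM in 2 or more libraries entered 1 fit on log2(TPM + 1), made in limma 3.58.1 (R 4.3.3) with trended empirical Bayes moderation, leaving 4 residual degrees of freedom. Benjamini-Hochberg adjustment ran over the whole set tested. Changes of genes with low TPM are understated on this scale. The test was also run on data simulated with independent normal errors of each gene's spread here. That cannot show whether the spread among these libraries is technical. Near-identical transcripts were found with BLAST 2.17.0 in GENCODE M21.

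Named members were up to 8 called members with the largest change in each direction and subunit, the 3 highest and 3 lowest by level, the 3 nearest 0, the 3 with the largest control variation, 9 set by symbol, and up to 4 called genes of each pathway list with the smallest p. Any other gene was named with its values known. Alternatives changed the pseudocount, filter, scaling, variance model and replicate block, left out each library, and used either pair of controls. The replicate block takes its change from Controls 1 and 2 alone, so these 2 alternatives are not separate checks.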

Additional observations from a re-analysis of the deposited data

Results flagged for a closer look

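Among the 4 controls, 5 genes had a lowest library that stood apart from the other 3, with a gap to the nearest library, as a share of the group's whole range, above Dixon's 95% critical value. Chance gives this in about 1 in 20 groups, and 81 values were examined. Control 1 was the low library for Mrpl40 (51.7 TPM, others 58.9 to 60.3 TPM, gap 0.843), Mrps28 (49.1 TPM, others 58.8 to 60.2 TPM, gap 0.873) and Mrps36 (39.8 TPM, others 45.4 to 46.4 TPM, gap 0.837). Control 3 was the low library for Mrps18b (67.5 TPM, others 71.9 to 72.6 TPM, gap 0.862) and Mrps5 (34.7 TPM, others 37.0 to 37.3 TPM, gap 0.889). Control 1 also had the lowest sum over all members, 5535 TPM, and was the lowest control for 35 of the 78 genes. Without Control 1, Mrps36 passed the test with a log2 change of -0.24, and Mrps5 did not pass.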

How the results depend on the processing

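The count of members that rose was 4 and became 2 with no filter, 8 with median-of-ratios scaling, 2 with a variance model without trend and 0 to 4 when a library was left out. The count that fell was 20 and became 13 with median-of-ratios scaling, 24 when rescaled without the 50 most abundant genes, 21 with quantile normalization and 11 to 20 when a library was left out. With median-of-ratios scaling the medians turned from -0.02 to 0.0440 in the large and from -0.06 to 0.0068 in the small subunit, beside -0.01 over all genes tested. With quantile normalization the large subunit median was 0.0036. Leaving out a library gave -0.0455 to -0.0035 for the large and -0.0885 to -0.0537 for the small subunit. The change of the large to small ratio was 5.67%, and 3.24% or 3.33% with fewer members. The cause of these shifts was not tested, apart from the smaller sets of samples or genes. The deviations of same-numbered libraries had correlations of -0.01 and -0.02, which gives no sign of pairing. Whether a number marks a shared batch or day cannot be told from 2 pairs. With the replicate block 4 members rose and 16 fell, and 16 of the 24 calls were kept. In that fit Controls 3 and 4 have no GAFCP library of the same number, so they add nothing to the change. The members' median log2 change was -0.0167 there and with Controls 1 and 2 alone.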
